A study of Caenorhabditis elegans with 2 samples.

Results

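The genes eef-1A.1 and eef-1A.2 are the C. elegans genes for translation elongation factor 1A (eEF1A), and they are 2 of the 19973 protein-coding genes annotated on the nuclear chromosomes. They were examined for binding of CEBP-1, a member of the C/EBP family of bZIP transcription factors. All ranked and thresholded peaks were collected whose summit lay between 2 kb upstream of an annotated 5′ end and the end of the gene. The pair had been chosen by the signal of its peaks in these same lists, so signals and ranks are given as a description with no test. The animals were whole young adults of strain RW12290, aged 62 hours after synchronisation by starving hatched larvae, with cebp-1 on chromosome X carrying a TY1, EGFP and 3xFLAG insertion made by CRISPR. There was 1 group of 2 biological replicates, both from this tagged strain, and an antibody against GFP was used. Neither an untagged strain nor an input library was used here, and whole animals mix all tissues, so a peak cannot be assigned to a cell type.

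eEF1A binds GTP and carries aminoacyl-tRNA to the A site of the ribosome. After GTP is hydrolysed, the eEF1B complex exchanges GDP for GTP, and eEF2 then moves the ribosome along the message. eEF1A is among the most abundant proteins of eukaryotic cells and also binds actin. In mammals the EEF1A genes are expressed in different tissues. C/EBP proteins bind DNA as dimers of basic leucine zippers, and their known sites are close to the palindrome TTGCGCAA.

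Each paralogue had exactly 1 thresholded peak in each of the 4 lists examined, namely those of replicate 1, replicate 2 and the conservative and optimal lists of the series. The share of all protein-coding genes with a thresholded summit in the same window was 7.62% in the conservative list, 9.49% in the optimal list, 8.02% in replicate 1 and 4.48% in replicate 2. The genes were chosen by these peaks, so nothing is read from that comparison. Both peaks lay upstream of the gene and at nearly the same distance from the 5′ end, 391 bp for eef-1A.1 and 376 bp for eef-1A.2. The eef-1A.2 peak had 4.97 times the signal of the eef-1A.1 peak, and its summit lay beside a C/EBP-type word that the eef-1A.1 peak lacked.

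Whether the word has a part in the difference in signal was not tested. The sequence around each series summit is printed to show where the word was found and where it was not. Each is 201 bases long, 100 bp either side of the summit base, read 5′ to 3′ on the strand of its gene from the RefSeq sequence of WBcel235, which is the same build as ce11. Capitals mark the C/EBP-type word, and no base is in capitals where none of the C/EBP-type words searched was found.
eef-1A.2 summit, plus strand, chrX:7823178-7823378: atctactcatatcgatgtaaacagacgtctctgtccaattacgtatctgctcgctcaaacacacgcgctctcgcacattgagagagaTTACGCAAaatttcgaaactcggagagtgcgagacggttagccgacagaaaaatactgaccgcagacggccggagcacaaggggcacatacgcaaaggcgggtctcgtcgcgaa
eef-1A.1 summit, minus strand, chrIII:6972003-6972203: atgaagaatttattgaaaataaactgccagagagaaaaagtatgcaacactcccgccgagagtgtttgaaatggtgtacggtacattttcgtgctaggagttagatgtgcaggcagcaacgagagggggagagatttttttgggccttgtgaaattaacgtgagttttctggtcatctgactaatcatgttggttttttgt

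The eef-1A.2 peak had its summit almost on a TTACGCAA, which reads TTGCGTAA on the opposite strand. The word occupied X 7823265 to 7823272, 382 bp upstream of the 5′ end, and its centre was 9.5 bp from the summit. It was present in the summit window of all 4 lists. TTGCGTAA was rare among the peaks: 12 of the 1546 conservative summits (0.776%) had it within 100 bp on either strand, and 106 of 19973 promoter windows of the same length, directly upstream of a 5′ end, had it (0.531%). TTGCGAAA, which was more common at the peaks, was within 100 bp of 442 conservative summits (28.6%) and in 2.41% of promoter windows, and it was at neither paralogue's summit. The looser form TTGCNNAA, which includes both words, was at 614 summits (39.7%) and in 18.8% of promoter windows.

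Among the 12 peaks with TTGCGTAA, the eef-1A.2 peak had the highest signal. The signals ran from 39.86 to 1189 with a median of 115.4, and the next strongest, at F58D5.5, had 544.5, so the eef-1A.2 value was 2.18 times as high. The median of all 1546 conservative peaks was 115.5, so peaks with the word were not stronger as a group. The eef-1A.2 peak stood apart from most of them. The eef-1A.2 peak was also the strongest of the 1104 conservative peaks without TTGCGAAA, whose median was 103. The 30 bases around the word are printed for places 1, 4, 5, 6 and 7 by signal among the 12, oriented so that the word reads TTGCGTAA, in capitals.
eef-1A.2, chrX:7823254-7823283: gtttcgaaattTTGCGTAAtctctctcaat
F10E7.11, chrII:7123221-7123250: acgtgcgaggcTTGCGTAAaaagcatgcgg
vha-17 and F49C12.12, chrIV:9321259-9321288: tgcgaaattagTTGCGTAAtgtgcgtcacg
mocs-1 and nkat-3, chrX:15441111-15441140: taatcgttccaTTGCGTAAatgataagata
cgp-1, chrV:123633-123662: ttttcgtgagaTTGCGTAAaatttcgaaat

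The signals behind these lines were 1189 at eef-1A.2, 287.5 at F10E7.11 and 189.8 at vha-17, which encodes a subunit of the vacuolar proton pump. They were 117.6 at mocs-1 and nkat-3, which encode enzymes of molybdenum cofactor and kynurenine metabolism, and 113.3 at cgp-1, which encodes a GTP-binding protein. The F10E7.11 and vha-17 windows held TTGCGAAA as well, while those of eef-1A.2, mocs-1 and cgp-1 did not. Over all 12 peaks with the word, its centre was 1.5 to 82.5 bp from the summit, with a median of 29 bp. It was within 20 bp at 5 of the 12, including eef-1A.2 at 9.5 bp, and 2 were closer than eef-1A.2, at saps-1 (1.5 bp) and cgp-1 (7.5 bp). The second strongest of the 12, at F58D5.5, had it at 75.5 bp. The third strongest, with a signal of 300.5 and outside any promoter, had it at 11.5 bp. At F10E7.11 and vha-17, the next by signal, it was at 36.5 bp and 49.5 bp.

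The eef-1A.1 window held none of the C/EBP-type words TTGCGAAA, TTGCGTAA, TTGCGCAA, TTACGTAA or TTGCNNAA, and widening it to 150 bp on each side added none. Its nearest TTGCNNAA was centred 350.5 bp from the summit at III 6972450 to 6972457, inside the neighbouring gene rfc-4. The nearest TTGCGAAA in the 2 kb upstream of the 5′ end was 1432 bp away, also within rfc-4. The body of eef-1A.1 was not searched for it. The eef-1A.1 peak was place 54 by signal among the 932 conservative peaks without TTGCNNAA, whose median was 102.5. Absence of these letters from the window says nothing about how the factor was held there.

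The word that both summits shared was GAGAGA, found on the strand of each gene. The eef-1A.2 summit had 2 overlapping copies, the nearer centred 16.5 bp from the summit and ending next to the TTACGCAA. The eef-1A.1 window had 2 separate copies, centred 30.5 bp and 68.5 bp from the summit. The farther copy lay outside the series peak, and the window around the replicate 1 summit held only 1 copy. GAGAGA was within 100 bp of 488 conservative summits (31.6%) and in 16.4% of promoter windows, so its presence at both was not unusual among the peaks. The 30 bases around it are shown for each gene on its own strand, with the repeat in capitals.
eef-1A.2, chrX:7823245-7823274: ctctcgcacattGAGAGAGAttacgcaaaa
eef-1A.1, nearer copy, chrIII:6972058-6972087: caacgagaggggGAGAGAtttttttgggcc
eef-1A.1, farther copy, chrIII:6972157-6972186: aataaactgccaGAGAGAaaaagtatgcaa

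None of the other words searched on both strands was at either summit. These were TTGCATCA, a composite word of C/EBP and ATF proteins, TGACTCA and TGACGTCA of AP-1 and CREB proteins, the E-box CACGTG, the TATA word TATAAA and GGGCGG. With 150 bp on each side, 1 TATAAA came into the eef-1A.1 window. The base composition of the windows also differed: G and C made up 51.2% of the eef-1A.2 window and 40.8% of the eef-1A.1 window, against 42.4% ± 7.66 (SD over 1546 conservative windows). Of those windows, 86% had a lower GC share than the eef-1A.2 window, and 42.3% had a lower one than the eef-1A.1 window.

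The signal value is the authors' score for the strength of a peak, and how it was scaled is not given in these sources. At eef-1A.2 the signal was 606.6 in replicate 1, 582.2 in replicate 2 and 1189 in each series list. At eef-1A.1 it was 146.6 in replicate 1, 95.92 in replicate 2 and 239.4 in each series list. The lower eef-1A.2 value was above the higher eef-1A.1 value. The pair was chosen by signal, so nothing is read from this. The replicate means were 594.4 ± 17.3 for eef-1A.2 and 121.3 ± 35.9 for eef-1A.1 (SD, n = 2).

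The ratio of the genes was 4.14 in replicate 1 and 6.07 in replicate 2, a log2 ratio of 2.33 ± 0.39 (SD, n = 2). It was 4.97 in both series lists, a log2 ratio of 2.31, as both held the same peaks with the same signals. The series value was close to the sum of the replicate values: 1189 against 1189 at eef-1A.2 and 239.4 against 242.6 at eef-1A.1. Over the 1525 conservative peaks with a ranked peak in both replicates, the series value divided by that sum had a median of 0.994 (quartiles 0.961 and 1.02).

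**Figure D1:**
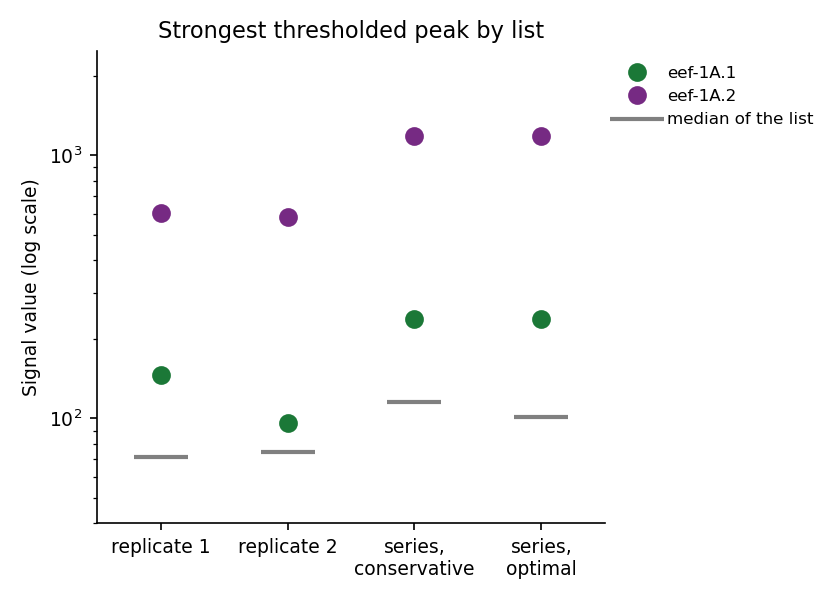
Signal of the thresholded peak of each gene (vertical axis, log scale, authors' units) in the lists of replicate 1, replicate 2 and the series (conservative and optimal). Points are single values and grey bars are list medians; eef-1A.2 lies above eef-1A.1 in each list, and eef-1A.1 in replicate 2, at 95.92, is nearest to its median of 74.26.

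The genes stood differently within the lists. The eef-1A.2 peak ranked 9 by signal among the 1546 conservative peaks, 11 of 1488 in replicate 1 and 4 of 797 in replicate 2, so it was within the top 1% of each (0.582%, 0.739% and 0.502%). The eef-1A.1 peak ranked 230 of 1546, 220 of 1488 and 243 of 797, or 14.9%, 14.8% and 30.5% from the top. In the optimal list of 1969 peaks the ranks were again 9 and 230. Ranks from lists of different lengths show no change between replicates. Relative to the list median, the eef-1A.2 signal was 10.3 times as high among the conservative peaks, 8.48 times in replicate 1 and 7.84 times in replicate 2. The eef-1A.1 signal was 2.07, 2.05 and 1.29 times the median.

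The irreproducible discovery rate (IDR) sets the ranking of peaks in 1 list against that in another, and estimates for each peak the share of false repeats expected among peaks of its rank or better. The eef-1A.2 peak had a global IDR of 1e-05 in all 4 lists, the smallest value the files hold. The eef-1A.1 peak reached that value in the optimal list and in replicate 1, and had 1.15e-05 in the conservative list and 4.91e-05 in replicate 2. The list of each replicate came with the signals of a pair of compared lists. These were 308.4 and 291.4 for eef-1A.2 in replicate 1 and 311 and 260.6 in replicate 2. For eef-1A.1 they were 74.53 and 70.69 in replicate 1 and 45.85 and 51.92 in replicate 2. In both replicates each eef-1A.2 value was above each eef-1A.1 value. Each pair came with the list of 1 replicate, so its values were not counted as further independent measurements.

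The replicate summits were closer to each other at eef-1A.2 than at eef-1A.1, while the signal ratios of the genes lay on opposite sides of the median ratio. The signal in replicate 1 was 1.04 times that in replicate 2 at eef-1A.2 and 1.53 times at eef-1A.1. Over the 1525 conservative peaks the median was 1.27 (quartiles 1.02 and 1.58), so both genes lay within or close to the middle of the peaks. The share of peaks with a lower ratio was 27.1% for eef-1A.2 and 72.8% for eef-1A.1. The eef-1A.2 summits of the replicates were 1 bp apart and the eef-1A.1 summits 33 bp apart, against a median of 22 bp. A larger gap was found at 93.8% of peaks for eef-1A.2 and at 34.4% for eef-1A.1.

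**Figure D2:**
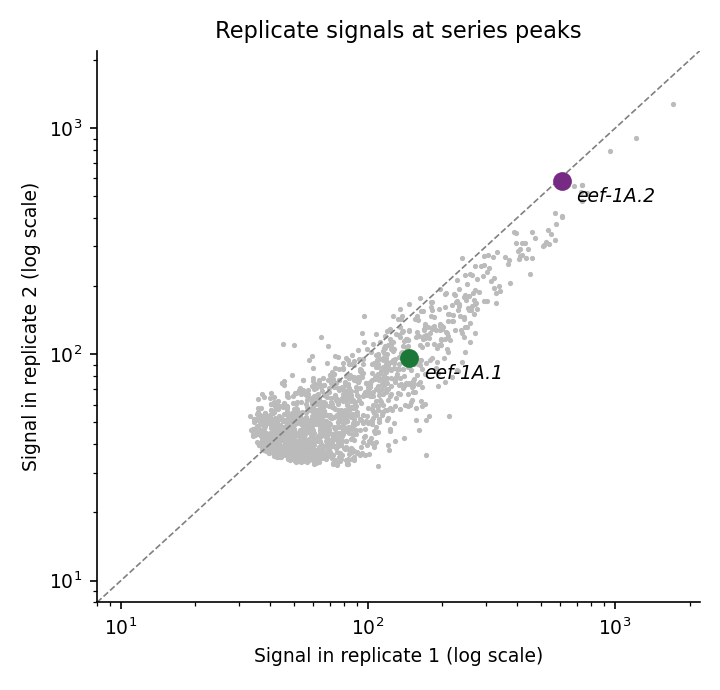
Signal in replicate 1 (horizontal, log scale) against replicate 2 (vertical, log scale) for the 1525 conservative peaks with a ranked peak in both, in grey, with both genes marked; the dashed line is equality. The eef-1A.2 point lies near the line (ratio 1.04) and eef-1A.1 below it (ratio 1.53).

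The eef-1A.1 gene (WBGene00001168) lies on the minus strand of chromosome III at 6970026 to 6971712 of ce11, with 1 annotated transcript of 4 exons. Its series peak spanned 6972000 to 6972108. The summit at 6972103 was outside any annotated gene, 5 bp from the right edge of the peak and 103 bp from the left. The peak was 109 bp wide and thus narrow, since the median of the conservative list was 304 bp and 64 peaks (4.14%) were narrower. The peak of replicate 1, at 6972001 to 6972122, was 122 bp wide with its summit at 6972073, and that of replicate 2, at 6971966 to 6972245, was 280 bp wide with its summit at 6972106. The whole of the replicate 1 peak lay inside that of replicate 2 and covered 43.6% of it.

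This peak lay between divergent genes. The 5′ end of rfc-4, a subunit of the replication factor C clamp loader, is 541 bp from that of eef-1A.1 on the opposite strand, and the summit was 150 bp upstream of rfc-4, nearer than the 391 bp to eef-1A.1. The window of F31E3.2, whose 5′ end was 1879 bp away, also held the summit. The peak overlapped the annotated microRNA gene cel-mir-5549, at 6971976 to 6972085 on the minus strand, by 86 bp. The series summit was 18 bp upstream of the 5′ end of cel-mir-5549, and the summit of replicate 1 was inside it. The peak therefore cannot be assigned to eef-1A.1 alone.

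The eef-1A.2 gene (WBGene00001169) lies on the plus strand of chromosome X at 7823654 to 7825769, with 3 annotated transcripts that share 1 5′ end. Its series peak spanned 7823107 to 7823438 with the summit at 7823278, near the middle of the 332 bp interval. It was wider than 1530 of the 1546 conservative peaks, and 15 (0.97%) were wider. The excess was small, since the list median was 304 bp. In the conservative ranking every weaker peak of both windows was also 304 bp wide. The peak of replicate 1 spanned 7823112 to 7823425 with its summit at 7823277, and that of replicate 2 spanned 7823144 to 7823413 with its summit at 7823278. These were 314 bp and 270 bp wide, and in replicate 2 the eef-1A.1 peak was the wider one, at 280 bp. No window of any other protein-coding gene held the summit. The nearest upstream protein-coding gene is sek-1, a p38 pathway MAP kinase kinase with a known role in innate immunity. It lies on the same strand and its end was 2242 bp from the summit. The peak overlapped the annotated non-coding RNA R03G5.8 by 54 bp, and the summit was 107 bp outside it.

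**Figure D3:**
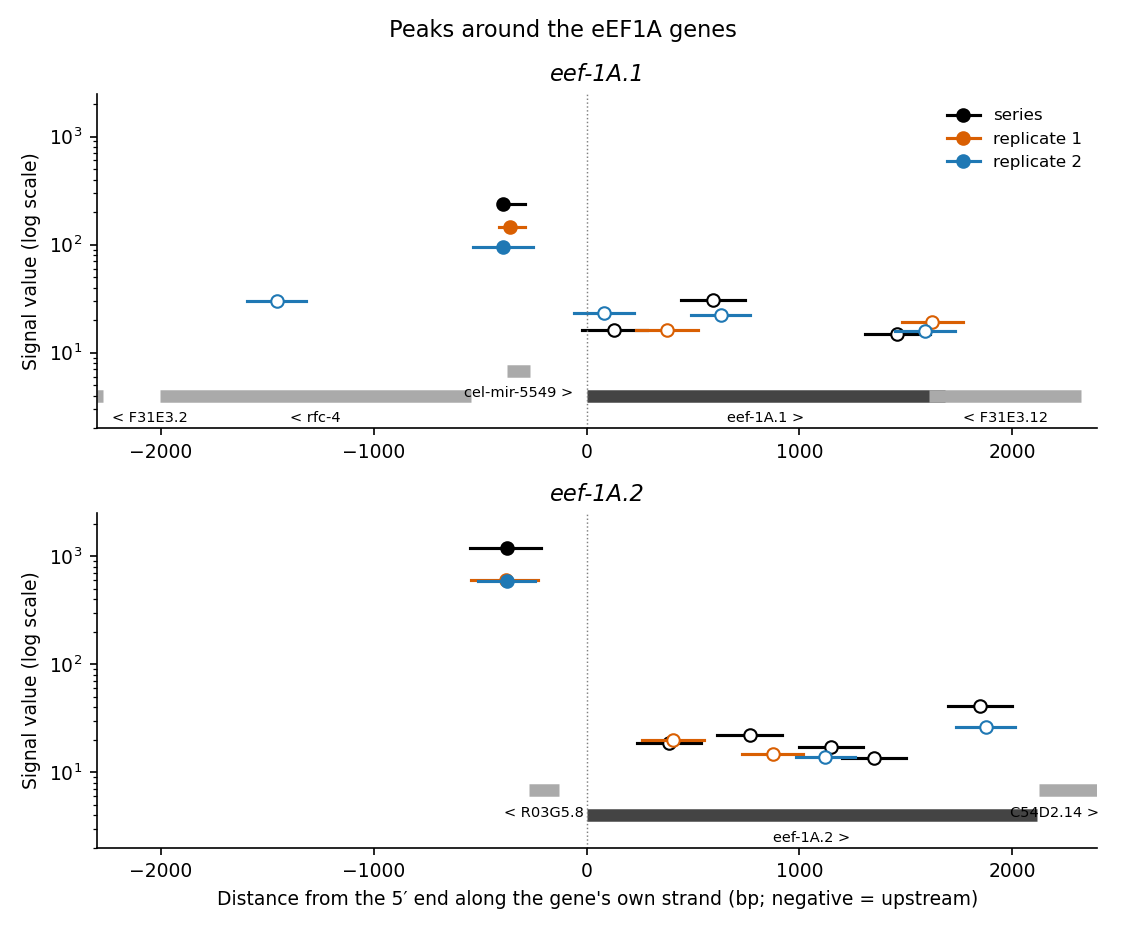
Ranked peaks around eef-1A.1 (top) and eef-1A.2 (bottom), by distance from the 5′ end along the strand of the gene (horizontal, bp) and signal (vertical, log scale). Lines are peak intervals and circles summits, filled where the peak passed the threshold, for the conservative series list (black), replicate 1 (orange) and replicate 2 (blue); bars are annotated genes at arbitrary height with their direction. The filled summits lie 391 bp and 376 bp upstream in the series list, and the open ones are weaker.

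Set against the other promoter summits, the eef-1A.2 summit was further from a 5′ end than the median but between the quartiles. Among the 879 conservative summits from 1000 bp upstream to 200 bp downstream of a protein-coding 5′ end, the median position relative to the nearest such end was 216 bp upstream (quartiles 86.5 and 438.5). The 376 bp of eef-1A.2 was exceeded by 29.9% of them. By the same measure the eef-1A.1 summit was 150 bp upstream of its nearest 5′ end, that of rfc-4, which 63.6% exceeded.

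The remaining peaks of the windows did not pass the authors' threshold. The conservative ranking had 3 such peaks at eef-1A.1 and 5 at eef-1A.2, replicate 1 had 2 at each gene, and replicate 2 had 4 at eef-1A.1 and 2 at eef-1A.2. Most summits lay in exons or introns of the gene itself: 3 of 3 at eef-1A.1 and 5 of 5 at eef-1A.2 in the conservative ranking. Across all rankings their signals ran from 13.684 to 40.658, with global IDR values from 0.527 to 0.887. The highest of them in the conservative ranking was 30.46 at eef-1A.1 and 40.66 at eef-1A.2, so the thresholded peak was 7.86 and 29.2 times as strong. In replicate 1 the same contrast was 7.59 and 30.8, and in replicate 2 it was 3.2 and 22.3.

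The peaks just outside the windows were weak too. The nearest ranked summit outside the eef-1A.2 window on the upstream side was 106 bp beyond it with a signal of 27.42, and on the downstream side 163 bp beyond it with 40.48, in the conservative ranking. For eef-1A.1 these were 567 bp and 45 bp beyond it, with signals of 20.12 and 35.58. All 4 had a global IDR of 0.398 or more.

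The paralogues encode the same protein, which raises the question of whether reads could be shared between the loci. The annotated proteins had 463 residues each and were identical at all 463 positions. The coding sequences, of 1389 bases, were identical at 1305 positions and differed at 84 (94% identity). Of the 1358 words of 32 bases in the coding sequence, 154 (11.3%) also occurred in that of the other gene. In the peaks the picture differed. None of the 78 words of the eef-1A.1 series peak, none of the 301 words of the eef-1A.2 series peak and none of the 1969 words of the 2 kb upstream of either gene occurred in the other paralogue or anywhere else in the genome. Within the genes, 156 of 1656 words of eef-1A.1 (9.42%) and 156 of 2085 words of eef-1A.2 (7.48%) occurred elsewhere in the genome. How the authors treated reads with several positions is not stated in the sources.

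The other genes of the elongation machinery were taken as a list of 21 names covering elongation, termination and rescue factors and the kinase of eEF2. Of these, 18 were found in the annotation, and selb-1, tsfm-2 and gfm-2 were not matched. With both eEF1A genes included, 8 of the 18 (44.4%) had a thresholded peak in the conservative list, in the optimal list and in replicate 1, against 7.62%, 9.49% and 8.02% of all protein-coding genes. In replicate 2 it was 4 of 18 (22.2%), against 4.48%. The list contains the eEF1A genes, which were chosen for their peaks, and without them 6 of 16 in the conservative list and 2 of 16 in replicate 2 remained. These are counts with no test. Of the 6 others in the conservative list, 2 had a signal above that of eef-1A.1 and 0 above that of eef-1A.2.

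Among the partners of eEF1A, the exchange factor gene eef-1B.1 had a signal of 104.5 (rank 907, summit 20 bp upstream) and eef-1G, the gamma subunit of the exchange complex, 116.3 (rank 764, 27 bp upstream). The exchange factor gene eef-1B.2 had no thresholded peak, and its strongest ranked peak had 44.44. eef-2, which encodes the translocase, had 133.6 (rank 608, 6 bp upstream), while its kinase efk-1 had no thresholded peak, with 72.66 as its highest ranked signal. In replicate 2 none of eef-1B.1, eef-1G and eef-2 had a thresholded peak.

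The genes for eIF5A, which helps the ribosome past difficult sequences, also differed in signal, but unlike the eEF1A pair only 1 of them had a thresholded peak. iff-2 had a thresholded peak of 252.2 in the conservative list, 161.9 in that of replicate 1 and 89.67 in that of replicate 2. It was above eef-1A.1 in the conservative list (rank 210 against 230) and in replicate 1 (188 against 220), and below it in replicate 2 (282 against 243). The strongest ranked peak of iff-1, which did not pass the threshold, had 78.18 (44.13 and 30.41). The ratio of iff-2 to iff-1 was 3.23 in the conservative ranking, 3.67 in replicate 1 and 2.95 in replicate 2. For eef-1B.1 over eef-1B.2 it was 2.35, 2.6 and 1.19. For the mitochondrial pair tufm-1 over tufm-2, neither with a thresholded peak, it was 1.07, 1.99 and 0.862, so the direction was not the same in both replicates.

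Among the termination and rescue factors, erfa-3, the release factor GTPase, had the strongest peak of the list after eef-1A.2. The conservative list gave it 328.6, while replicate 1 gave 210 and replicate 2 gave 120.7, with the summit 311 bp upstream and 2 copies of TTGCGAAA. The ribosome rescue factor gene pelo-1 had 136.6, with its summit 29 bp upstream and 2 copies of TTGCGAAA. In replicate 2 pelo-1 had no thresholded peak, with 41.51 as its highest ranked signal. No thresholded peak was found at erfa-1, iffb-1, hbs-1, tufm-1, tufm-2, tsfm-1 or gfm-1, whose strongest ranked signals in the conservative ranking ran from 31.3 at hbs-1 to 52.54 at gfm-1.

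Most of these peaks were shared with a neighbour. All 6 others had their summit in the promoter of a further protein-coding gene as well: math-33 for erfa-3, F54C9.14 for iff-2, R74.7 for pelo-1, clsp-1 for eef-2, ctf-4 for eef-1G and aco-2 for eef-1B.1. With eef-1A.1 and rfc-4 this made 7 of 8, and the eef-1A.2 summit lay in no other promoter. Of all 879 conservative promoter summits, 223 (25.4%) were in the promoters of 2 or more protein-coding genes. The 8 were reached through listed genes, and a shared summit can be reached through more than 1 gene, so these shares are not of the same kind. No test was made of this difference. For 5 of the 6 the summit was within 100 bp of the 5′ end, closer than at either eEF1A gene. None of the 6 had TTGCGTAA, and 2 had TTGCGAAA.

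**Figure D4:**
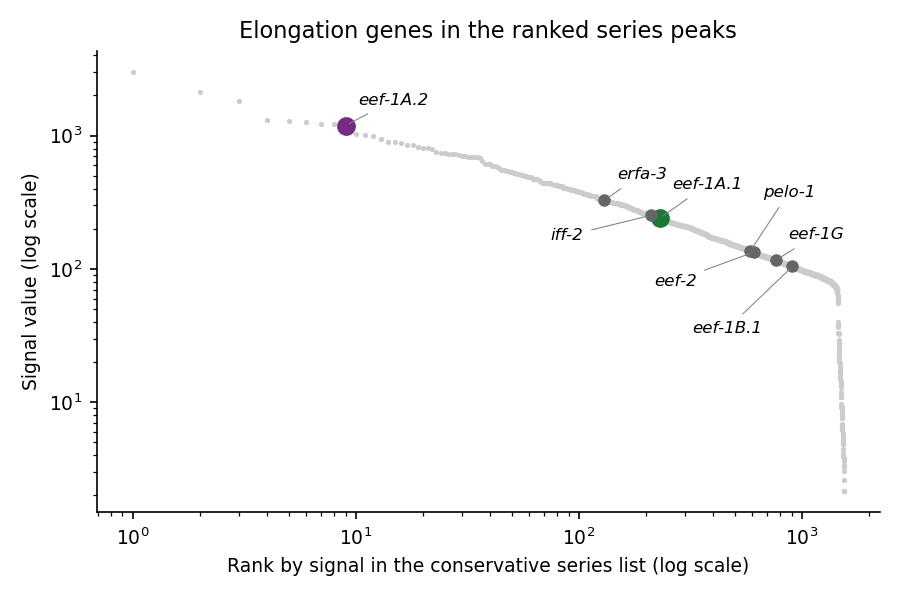
Signal (vertical, log scale) against rank by signal (horizontal, log scale) for the 1546 conservative peaks, in grey, with the thresholded peaks of elongation genes marked. The eef-1A.2 point is at rank 9 and the eef-1A.1 point at rank 230, between iff-2 at 210 and pelo-1 at 587.

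The peaks nearest in rank show what else had such a strength. Around eef-1A.2 these were the promoter peaks of Y37B11A.3 (rank 7, signal 1224), T28F4.5 (rank 10, 1031) and frm-10, a FERM-domain gene (rank 11, 1012), and a peak on X outside any promoter (rank 8, 1212). All 4 had TTGCGAAA within 100 bp, which eef-1A.2 lacked. In replicate 2 the eef-1A.2 signal of 582.2 was above those of all 4, which ran from 403.7 to 553.3, whereas in replicate 1 its 606.6 was below them, at 609.1 to 731.2. Around eef-1A.1 the signals were 239.6 at otub-2, a deubiquitinase gene, 239.5 at K02D10.1 and K02D10.3, 239.3 at ippk-1, which encodes an inositol phosphate kinase, and 239.1 at a peak outside any promoter. Of these 4, 2 had TTGCGAAA. Their signals were 123.9 to 162.6 in replicate 1 and 75.66 to 113.1 in replicate 2, and the eef-1A.1 values of 146.6 and 95.92 lay inside both ranges.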

How the data were processed

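The sources used were peak lists from anti-GFP ChIP-seq, with fragments of 200 to 800 bp per the labels: a ranked and a thresholded list for each of 2 replicates and conservative and optimal pairs for the series. The antibody field of the labels names cebp-1 and the description anti-GFP. The deposited signal value of each peak is the authors' own, with scaling not stated. The global IDR was deposited as its −log10 in each matched ranked list; no thresholded peak exceeded 0.01. Assembly ce11 is per the labels. The peak caller and the treatment of reads with several positions are not stated in the labels or notes. Depth is unknown, because the lists hold no read counts.

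Genes came from Ensembl release 115 (WBcel235). Promoters reached from 1000 bp before a 5′ end to 200 bp after it. Words of 32 bases were matched on both strands. The members and lists were chosen with earlier results of these data known. The genes named were the eEF1A pair, listed elongation genes with a thresholded peak, genes sharing their summits, and promoter genes of the 2 peaks above and below each in rank, besides the genes at peaks with TTGCGTAA and the list's genes without a thresholded peak, named after their values were seen. Replicates are separate biosamples of 1 strain. No p-values were computed. Python 3.11.15, numpy 2.4.6, pandas 2.3.3, biopython 1.88 and matplotlib 3.10.9 were used, and window assignment and motif search were tested on simulated data.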

Additional observations from a re-analysis of the deposited data

How the results depend on the processing

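Of 47 alternative settings of the results, 42 kept the direction and the size, 5 moved and 0 reversed. Assigning each summit only to the nearest protein-coding 5′ end left 0 thresholded peaks at eef-1A.1, because its summit is nearer to rfc-4, and so gave no ratio. With 1 replicate left out at a time, the log2 ratio of eef-1A.2 over eef-1A.1 ran from 2.05 to 2.6, the rank of eef-1A.2 from 4 to 11, the rank of eef-1A.1 from 220 to 243, and the number of elongation genes with a thresholded peak from 4 to 8, with the 4 in replicate 2 alone, whose list holds 797 peaks against 1488. Under a reciprocal overlap of at least 50%, 1 of the 2 genes kept a peak shared by both replicates, as the eef-1A.1 peaks differ in width. With 150 bp either side, the eef-1A.1 window held 2 of the words searched, the added word being TATAAA. The optimal list, a global IDR of at most 0.001, narrower windows, interval overlap, summed signals and ranking by IDR moved none of the ratios, counts or ranks of the pair beyond the limits set. For the IDR limit, narrower windows and summed signals, the ratio and the counts of the pair could not move. Each gene had 1 thresholded peak, 391 bp or 376 bp upstream, with a global IDR of 1.15e-05 or 1e-05. The optimal list held the same peaks of the pair with the same signals, so its ratio was not a further measurement. The rank of eef-1A.1 was scored as unchanged, although it stood 14.8% from the top in replicate 1 and 30.5% in replicate 2. The alternative that used the caller's p-value column was not run, because that column is not filled. No paired analysis was possible because there is 1 group. Depth limits were not assessed, since no read counts were in the files.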
